A study of Mus musculus with 62 samples.

Results

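Fos, Fosb, Fosl2, Jun, Junb, Jund, Atf3, Egr1, Maff and Btg2 make up a set of AP-1 and early-response genes, and their chromatin was examined in mouse skeletal muscle. A region was counted for one of them when the deposited annotation gave that gene as the nearest one. By this rule 865 of 601616 listed regions belonged to the 10 genes, over 20 lists: 16 lists of peaks for 2 histone marks in 8 groups of muscle, and 4 lists of H3K27ac regions that the authors called higher or lower after exercise or with a transgene. Nearest gene does not show which gene a region acts on.

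Early-response genes are transcribed within minutes of a stimulus, without new protein synthesis, and muscle contraction is one such stimulus. FOS proteins (Fos, Fosb, Fosl2) pair with JUN proteins (Jun, Junb, Jund) to form AP-1, a dimer of basic leucine zipper factors. ATF3, which is induced by stress, and MAFF, a small MAF protein without an activation domain, are related leucine zipper factors. EGR1 is a zinc finger factor, and BTG2 is an antiproliferative protein that binds the deadenylase complex acting on mRNA tails. Promoters of this kind are classically switched on through CArG boxes, bound by serum response factor, and through cyclic AMP response elements, bound by CREB and ATF proteins. H3K27ac marks active promoters and enhancers, and H3K4me2 marks promoters and enhancers whether or not they are active.

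All muscle came from adult male C57BL/6 mice. Untreated, sedentary wild-type animals gave extensor digitorum longus (EDL), quadriceps (Quad), soleus (Sol) and diaphragm (Dia). Quadriceps also came from wild-type mice that ran on wheels for weeks and were killed hours after their last bout (Ex), from their sedentary controls without wheels (Sed), from mice carrying a Pgc1a transgene (mTg; genotype PGC1a Tg(+)) and from wild-type littermates (Wt). The transgene is driven by the muscle creatine kinase promoter and is active in muscle fibers. Each group had 2 libraries per mark, 32 in all. A quadriceps library was 1 muscle of 1 animal, whereas EDL, Sol and Dia libraries pooled several animals.

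The 32 histone libraries held 6.41 to 24.2 M tags with a median of 19.5 M, and the 11 inputs held 7.72 to 22.9 M. The shallowest histone library was mTg H3K4me2 replicate 1. Between 5 and 7 of 7 muscle fiber marker genes (Acta1, Ckm, Tnnt3, Mylpf, Ttn, Myh4, Myh7) had an H3K27ac peak in each group, as did all 6 endothelial markers, 4 to 5 of 5 fibroblast markers, 4 to 5 of 6 macrophage markers, 2 to 3 of 3 smooth muscle markers and 1 to 2 of 2 satellite cell markers. Emr1 and Adgre1, both in the macrophage list, are names of the same gene, and Emr1 was found in no group. All samples are whole muscles, in which fewer cells of a type and less of a mark per cell cannot be told apart.

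Sequences of promoters and accessible sites of these genes are shown first, because the marks below lie over them. They were read from the RefSeq copy of GRCm38.p6, 5′ to 3′, and capitals mark every match on either strand to 6 motifs. These were the AP-1 element TGANTCA, the cyclic AMP response element TGACGTCA, its core TGACGT, the Jun-type element TGACNTCA, the CArG box and the MEF2 box. TGACGTCA contains the core and is also a match to TGACNTCA. Promoter windows are the 250 bases before an annotated start site on the gene's own strand, 11 windows for 9 of the genes.
Fos promoter, chr12:85473640-85473889 (+): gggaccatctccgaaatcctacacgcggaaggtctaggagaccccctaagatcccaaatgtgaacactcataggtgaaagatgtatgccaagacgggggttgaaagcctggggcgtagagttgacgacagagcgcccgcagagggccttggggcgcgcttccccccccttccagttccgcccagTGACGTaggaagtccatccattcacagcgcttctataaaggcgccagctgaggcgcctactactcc
Jun promoter, chr4:95052223-95052472 (-): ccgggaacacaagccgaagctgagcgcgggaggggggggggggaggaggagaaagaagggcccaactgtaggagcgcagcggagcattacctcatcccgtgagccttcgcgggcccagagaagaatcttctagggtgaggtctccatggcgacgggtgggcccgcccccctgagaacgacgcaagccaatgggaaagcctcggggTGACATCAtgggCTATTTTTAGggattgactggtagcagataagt
Btg2 promoter, chr1:134079156-134079405 (-): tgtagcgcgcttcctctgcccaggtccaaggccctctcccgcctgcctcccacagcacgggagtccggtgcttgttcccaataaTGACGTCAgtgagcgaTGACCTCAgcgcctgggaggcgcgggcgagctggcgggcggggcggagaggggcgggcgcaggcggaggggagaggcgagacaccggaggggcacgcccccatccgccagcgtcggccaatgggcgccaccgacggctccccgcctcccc
Maff promoter before an inner start site, chr15:79347270-79347519 (+): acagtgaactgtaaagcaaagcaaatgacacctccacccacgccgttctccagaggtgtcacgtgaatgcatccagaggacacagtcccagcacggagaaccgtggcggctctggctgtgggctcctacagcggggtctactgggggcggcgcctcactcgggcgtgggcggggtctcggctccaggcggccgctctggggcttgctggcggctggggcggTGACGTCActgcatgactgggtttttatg

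The core TGACGT lay 66 to 61 bases before the Fos start site. Jun had TGACNTCA 45 to 38 bases and a MEF2 box 33 to 24 bases before its start site. TGACGTCA lay 166 to 159 bases before the Btg2 start site and 29 to 22 bases before the inner Maff start site. Atf3 had the core 8 to 3 bases and a MEF2 box 22 to 13 bases before its start. Of all 32851 promoter windows of this length, 6.47% held TGACGT, 1.55% TGACGTCA, 7.49% TGACNTCA and 0.508% a MEF2 box. No window of the 9 genes held TGANTCA (6.75% of all) or a CArG box (1.47% of all). The Jun window overlaps an exon of the antisense non-coding RNA Junos.

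CArG boxes were found in accessible sites near Fos and Junb. Sites of open chromatin came from ATAC-seq of control quadriceps, pooled by the authors into 1 list of 44911 peaks of 195 bases. The 10 sites below lie in H3K27ac peaks described later and are given on the + strand.
Fos, 322 bases before the start site, chr12:85473471-85473665: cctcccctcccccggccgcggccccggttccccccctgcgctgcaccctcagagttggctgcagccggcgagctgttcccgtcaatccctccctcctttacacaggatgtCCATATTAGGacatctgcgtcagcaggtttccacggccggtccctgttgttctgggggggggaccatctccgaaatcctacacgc
Fos, 18.5 kb upstream, chr12:85455303-85455497: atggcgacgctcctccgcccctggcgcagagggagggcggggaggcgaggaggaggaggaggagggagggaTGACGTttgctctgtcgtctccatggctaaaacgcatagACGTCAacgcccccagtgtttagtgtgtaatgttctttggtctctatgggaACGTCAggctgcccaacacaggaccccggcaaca
Fos, 12.1 kb downstream, chr12:85485930-85486124: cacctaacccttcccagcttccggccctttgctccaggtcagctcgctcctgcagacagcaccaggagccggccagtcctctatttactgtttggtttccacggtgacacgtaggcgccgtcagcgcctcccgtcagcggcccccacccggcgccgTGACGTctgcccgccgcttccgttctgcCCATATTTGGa
Junb, 2.09 kb downstream, chr8:84976561-84976755: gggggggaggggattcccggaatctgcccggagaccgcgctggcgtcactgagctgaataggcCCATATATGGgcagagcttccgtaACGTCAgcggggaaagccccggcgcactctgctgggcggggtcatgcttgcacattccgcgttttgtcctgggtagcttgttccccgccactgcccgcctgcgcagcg
Junb, 1.39 kb upstream, chr8:84980036-84980230: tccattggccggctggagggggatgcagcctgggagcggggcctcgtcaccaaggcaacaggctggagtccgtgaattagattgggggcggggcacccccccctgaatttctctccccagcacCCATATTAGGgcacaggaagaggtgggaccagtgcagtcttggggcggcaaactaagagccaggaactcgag
Atf3, 41.1 kb upstream, chr1:191224337-191224531: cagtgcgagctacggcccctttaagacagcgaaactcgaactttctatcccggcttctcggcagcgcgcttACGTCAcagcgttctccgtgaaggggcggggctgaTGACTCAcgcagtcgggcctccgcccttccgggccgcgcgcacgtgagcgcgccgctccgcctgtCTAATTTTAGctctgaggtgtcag
Fosb, 17.2 kb upstream, chr7:19327193-19327387: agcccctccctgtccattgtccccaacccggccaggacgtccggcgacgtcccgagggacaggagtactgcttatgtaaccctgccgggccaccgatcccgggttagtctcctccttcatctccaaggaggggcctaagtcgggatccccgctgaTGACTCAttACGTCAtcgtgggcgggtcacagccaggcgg
Fosl2, 669 bases before the start site, chr5:32135706-32135900: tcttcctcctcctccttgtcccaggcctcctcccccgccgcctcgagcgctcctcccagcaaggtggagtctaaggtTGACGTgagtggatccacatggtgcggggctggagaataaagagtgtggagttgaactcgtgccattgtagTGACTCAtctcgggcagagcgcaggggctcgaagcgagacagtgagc
Jun, 102 kb upstream, chr4:95154015-95154209: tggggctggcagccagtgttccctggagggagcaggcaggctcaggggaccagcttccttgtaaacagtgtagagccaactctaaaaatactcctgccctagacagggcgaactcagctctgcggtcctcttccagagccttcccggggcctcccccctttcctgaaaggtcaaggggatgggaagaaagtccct
Jun, 232 kb upstream, chr4:95283763-95283957: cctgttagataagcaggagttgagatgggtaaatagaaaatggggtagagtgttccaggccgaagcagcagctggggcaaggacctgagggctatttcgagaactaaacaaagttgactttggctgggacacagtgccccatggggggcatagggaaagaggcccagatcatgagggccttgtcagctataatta

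CArG boxes stood at the Fos start site, in the site downstream of Fos and on either side of Junb. The site 18.5 kb upstream of Fos held the core TGACGT 3 times. The Atf3 and Fosb upstream sites and the Fosl2 start site each held both TGANTCA and TGACGT. The 2 Jun sites shown held none of the 6 motifs. Over the 47 accessible sites in Quad H3K27ac peaks of the 9 genes, 13 (27.7%) held TGACGT, against 5.39% of 17473 sites on the same 7 chromosomes. Those 17473 are all accessible sites there, whether or not they lie in an H3K27ac peak, so the 2 sets are unlike. A CArG box was in 4 (8.51% against 1.09%), TGACGTCA in 3 (6.38% against 1.32%), TGACNTCA in 6 (12.8% against 6.32%), a MEF2 box in 2 (4.26% against 2.06%) and TGANTCA in 5 (10.6% against 10.02%). A match is a run of letters and not an observed binding event. Of the sites shown, those 18.5 kb upstream of Fos and 41.1 kb upstream of Atf3 overlap exons of the non-coding RNAs Gm38543 and D730003I15Rik, and the others shown overlap no annotated exon.

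H3K27ac peaks with one of the 10 genes as nearest gene numbered 61 in EDL, 60 in Quad, 60 in Sol, 56 in Dia, 58 in Sed, 65 in Ex, 77 in Wt and 54 in mTg, which sum to 491. The lists they came from held 33106 to 49010 peaks. H3K4me2 peaks numbered 50, 54, 44, 50, 44, 43, 55 and 31 in the same order, and sum to 371. The genes differed widely in how much chromatin fell to them. Jun had 115 of the H3K27ac peaks, Fosl2 106, Fos 88, Fosb 39, Atf3 37, Btg2 31, Maff 25, Egr1 23, Jund 17 and Junb 10. Jun and Fosl2 peaks reached as far as 251770 and 204987 bp from the start site, with 70 and 27 of them over 100 kb away. Every Junb peak lay within 5 kb of its start site.

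Merging the peaks of both marks over all groups gave 91 regions, of which Jun had 27, Fosl2 19, Fos 15, Atf3 8, Fosb 5, Egr1 5, Maff 4, Btg2 4, Jund 3 and Junb 1. Counting peaks there whatever their nearest gene, H3K27ac was called in all 8 groups in 26 of them, H3K4me2 in 21 and both in 17. Another 21 carried H3K27ac in 1 group alone, 19 of which had no H3K4me2 peak in any group. Merged by mark, 28.9% of 90 H3K27ac regions of the 10 genes were called in all 8 groups, against 21.8% of all 63441 merged regions, and 24.4% in 1 group, against 29.4%. For H3K4me2 the shares were 31.8% of 66 against 25.7% in all 8 groups, and 10.6% against 27.9% in 1 group.

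**Figure D1:**
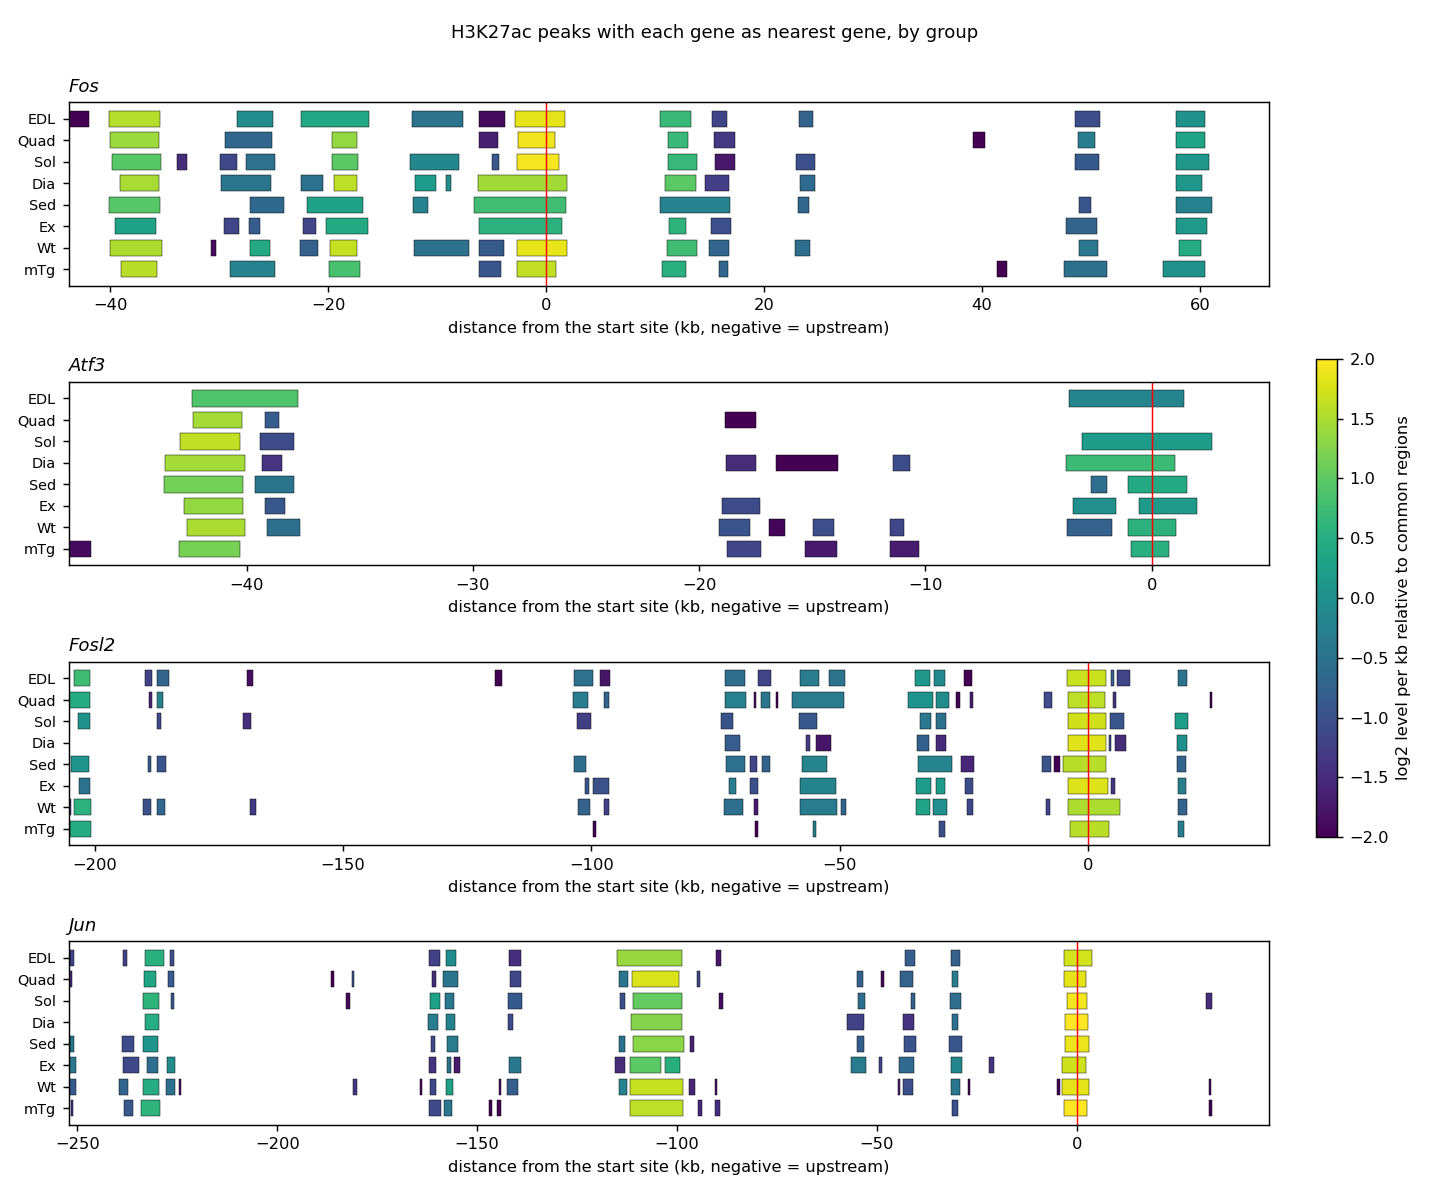
H3K27ac peaks whose nearest gene was Fos, Atf3, Fosl2 or Jun, drawn to scale for the 8 groups against distance from the start site in kb (red line). Colour gives the mean level of 2 libraries on a log2 scale per kb of peak, relative to regions called in all 8 groups. Strong peaks lie at the start sites of Fos, Fosl2 and Jun, 37.7 kb upstream of Fos, 41.5 kb upstream of Atf3 and 105 kb upstream of Jun.

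Levels were compared as the deposited log2 tag value per kb of peak, minus the median of the same library over peaks in regions called in all 8 groups of that mark. A relative level of 0 is then an ordinary shared peak and 1 is 2 times its level per kb. Each list was normalized by the authors on its own, so differences between groups are given with no test. Start-site peaks of the 10 genes stood above their inputs by 2.10 to 4.17 log2 units for H3K27ac and 2.14 to 4.14 for H3K4me2.

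Jun and Fosl2 had high start sites in every group. For Jun the relative H3K27ac levels of the 2 libraries were 1.78 and 1.69 in EDL, 1.87 and 1.80 in Quad, 2.05 and 1.81 in Sol, 1.99 and 2.19 in Dia, 1.73 and 2.03 in Sed, 1.83 and 1.55 in Ex, 1.86 and 1.81 in Wt, and 2.04 and 1.91 in mTg. Its median percentile among all H3K27ac peaks was 99.8. Of 7 neighbouring pairs of groups in the order of means, from Dia down to Ex, the libraries of 6 overlapped, and Quad and EDL alone did not. Fosl2 ran from 1.45 to 1.88 over 16 libraries, at a median percentile of 99.5, and every neighbouring pair of groups overlapped.

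Fos stood near Jun in EDL, Quad, Sol and Wt and lower per kb in mTg, Dia, Sed and Ex. The 2 libraries read 1.98 and 1.70 in EDL, 1.97 and 1.86 in Quad, 2.10 and 1.78 in Sol, 1.93 and 1.77 in Wt, 1.71 and 1.54 in mTg, 1.54 and 1.35 in Dia, 0.83 and 0.72 in Sed, and 0.68 and 0.45 in Ex. The order of means was Sol, Quad, Wt, EDL, mTg, Dia, Sed and Ex, and libraries were apart between mTg and Dia, Dia and Sed, and Sed and Ex. The lowest 3 groups are those whose peak was called widest, at 8.22 kb in Dia, 8.47 kb in Sed and 7.71 kb in Ex against 3.40 to 4.64 kb elsewhere. Summed over the whole peak instead, Dia was highest at 4.58 and 4.39 and Sed was at 3.91 and 3.80, above Quad at 3.74 and 3.63. Ex, at 3.63 and 3.40, was then near mTg, at 3.57 and 3.41. For Dia and Sed the low level of Fos holds per kb and not for the whole peak.

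Jund had the clearest difference between muscles per kb. Its libraries read 2.03 and 2.03 in Dia, 1.60 and 1.37 in mTg, 1.44 and 1.28 in EDL, 1.41 and 1.29 in Sol, 1.36 and 1.09 in Ex, 1.26 and 1.17 in Wt, 1.08 and 1.33 in Sed, and 1.19 and 1.12 in Quad. Dia stood clear of mTg, and the other 6 neighbouring pairs overlapped. The Dia peak was also called narrower, at 5.88 kb against 9.35 kb in Quad, and over whole peaks the muscles were close. Dia then read 4.59 and 4.58, EDL 4.64 and 4.47, Sol 4.55 and 4.43, Wt 4.57 and 4.49, Sed 4.33 and 4.58, and Quad 4.42 and 4.35. Junb read 1.76 and 1.68 in Dia, 1.61 and 1.65 in Sed, 1.73 and 1.44 in Wt, 1.63 and 1.34 in EDL, 1.52 and 1.43 in mTg, 1.52 and 1.35 in Sol, 1.15 and 1.01 in Quad, and 1.04 and 1.05 in Ex. Quad and Ex were the low groups for Junb per kb, clear of Sol, the next one up. The Ex peak was the widest, at 11.8 kb, and over the whole peak Ex read 4.601 and 4.61, above Sol at 4.45 and 4.29 and Quad at 4.04 and 3.91.

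Maff was low in Quad and EDL and high in Dia and Sol. It read 1.30 and 0.91 in Dia, 1.26 and 0.67 in Sol, 1.15 and 0.62 in mTg, 0.56 and 0.71 in Wt, 0.40 and 0.52 in Sed, 0.65 and 0.23 in Ex, 0.62 and -0.09 in EDL, and 0.22 and 0.11 in Quad. Its replicates spread more than those of any other of the 10 genes, with a median SD of 0.287, and only Wt and Sed were apart among neighbours.

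The remaining start sites were moderate. Atf3 had a start-site H3K27ac peak in 7 groups and none in Quad, with libraries from -0.44 in EDL to 0.88 in Dia. Egr1 had one in 7 groups, from 0.45 to 0.94, and in mTg its peak was called upstream of the start. Btg2 had one in all 8, from 0.39 in Sed to 1.20 in Sol. Fosb had a peak across its start site in 4 groups, at 0.97 and 0.69 in Dia, 0.63 and 0.69 in Wt, 0.55 and 0.45 in EDL, and 0.41 and 0.05 in Sol. Median percentiles were 91.2 for Btg2, 89.6 for Egr1, 87.5 for Fosb, 85.8 for Maff and 81.5 for Atf3, against 99.0 for Fos, 98.9 for Junb and 97.0 for Jund.

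H3K4me2 ranked the genes differently. Fosb, moderate in H3K27ac, had the highest H3K4me2 start site, with libraries from 0.77 in Sol to 1.29 in Dia and a median percentile of 99.9. Junb followed at a median percentile of 99.7 (0.71 to 1.23) and Fosl2 at 99.2 (0.44 to 1.04). Jun, the highest in H3K27ac, had a start-site H3K4me2 peak in 6 groups at 0.50 to 0.78 and a median percentile of 95.6. Jund, at a percentile of 97.0 in H3K27ac, had the lowest median in H3K4me2, with -0.01 to 0.65 over 7 groups and a percentile of 81.1. Of the 10 genes, Fosb, Junb, Fosl2, Maff and Fos reached a median H3K4me2 percentile over 98.

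**Figure D2:**
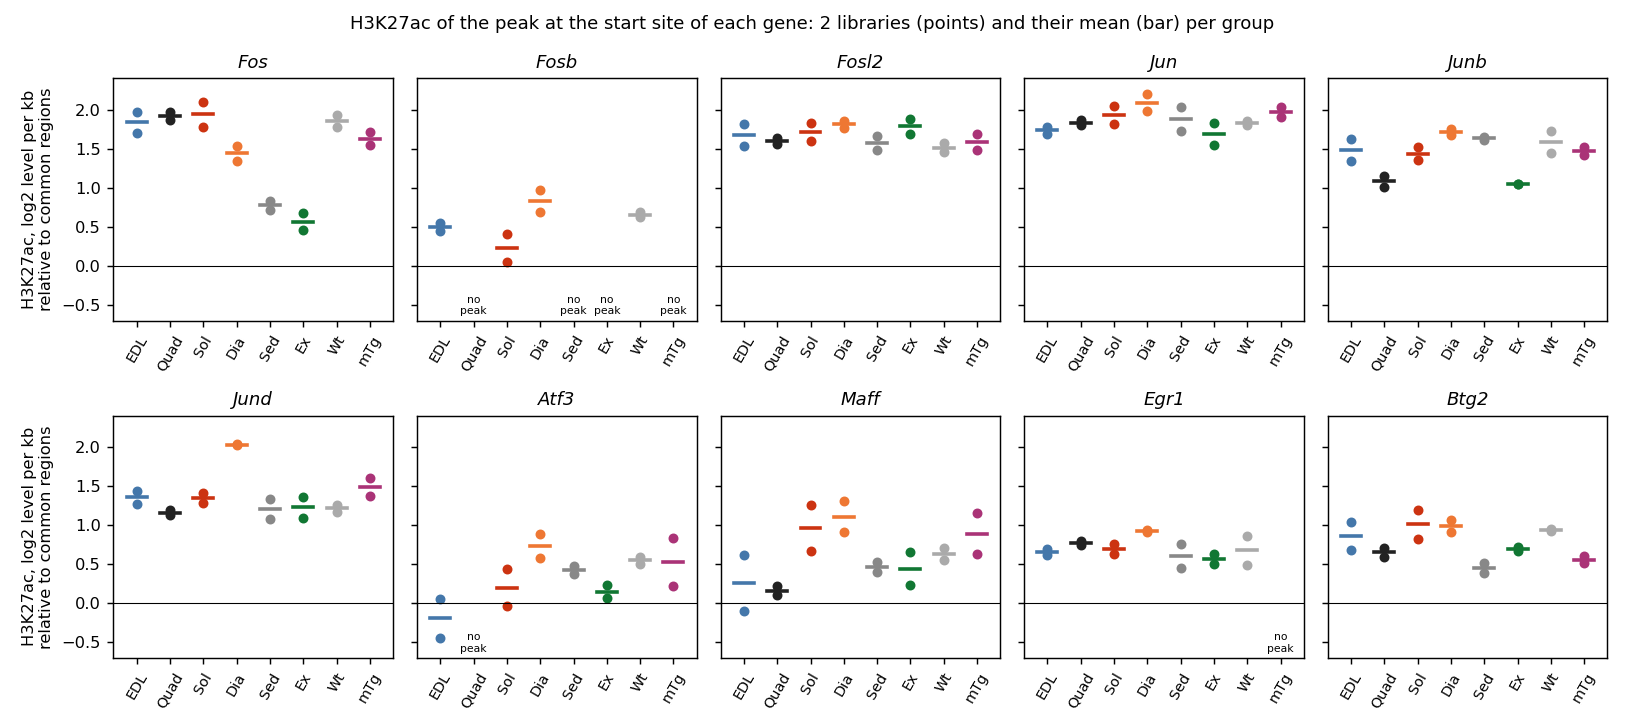
Relative H3K27ac level of the peak across the start site of each gene (log2 per kb, relative to regions called in all 8 groups), with 1 point per library and a bar at the mean of 2. Jun and Fosl2 vary little, Dia is clear of the other groups for Jund per kb, and Fos is low per kb in Sed and Ex, whose peaks are 8.47 and 7.71 kb wide.

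Of the 7 genes with a start-site peak in all 8 groups, Dia was the highest group per kb for 5 (Fosl2, Jun, Junb, Jund and Maff), where it was for 9.96% of 5542 genes. Over whole peaks, a setting added after the data were seen, it was for 6, all but Fosl2, against 8.52% of genes. The same libraries were then compared pair by pair, as a description that is not independent of this order. Regions within 5 kb of a start site were matched 1 to 1 between Dia and Quad at a reciprocal overlap of 50%, and differences were centred on the median over all matched regions. All 8 matched regions, of 7 genes, were higher in Dia with no overlap of libraries, where 44.6% of all 8657 near-start regions were. The Fos start site, lower per kb in Dia, had no match because of its width there. Their median difference was 0.49 log2 units, against 0.087 for all. Maff led with 0.95 at its start site and 0.84 at 3.21 kb inside the gene, followed by Jund with 0.87 and Junb with 0.64. Over whole peaks, not divided by width, these differences were 1.23, 1.81, 0.20 and 1.03. In H3K4me2, 5 of 11 near-start regions were higher in Dia than in Quad with no overlap (40.0% of all), and 1 was lower (30.2%). Untreated quadriceps sets also differed: 8 of 11 H3K4me2 regions were higher in Quad than in Sed (35.4% of all) and 1 lower (32.6%). For H3K27ac that pair had 1 of 8 higher in Quad (15.4%) and 2 lower (42.0%).

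The same comparison was then made against the other untreated groups, a step added after the first result was seen, with the same 2 Dia libraries each time. Against EDL, 8 of 11 regions were higher in Dia with no overlap (38.9% of all), and Fos was lower, with a difference of -0.46. Against Sol, 5 of 10 were (38.8% of all), with Jund 0.73, Fosb 0.65 and Atf3 0.58 above Sol. Against Sed, 9 of 9 were (26.9% of all), with a median of 0.60 against -0.01 for all. Against Wt, 6 of 7 were (36.8% of all), led by Jund at 0.96 per kb. Without division by width the counts for Quad, EDL, Sol, Sed and Wt were 8, 9, 7, 8 and 5. The shares of all near-start regions were then 48.9%, 38.8%, 43.4%, 30.1% and 36.3%. The Sol count depended on single libraries, being 8 without Dia replicate 2 (49.0% of all) and 9 without Sol replicate 1 (51.0% of all). In H3K4me2, per kb, the counts for EDL, Sol, Sed and Wt were 7 of 10, 9 of 11, 9 of 11 and 6 of 10. The shares of all near-start regions were 32.1%, 34.4%, 38.5% and 30.1%. The median level of endothelial markers was -0.01 in Dia, -0.19 in Quad, -0.32 in EDL and 0.16 in Sol, that of fibroblast markers -0.52, -0.29, -0.66 and -0.60, and that of macrophage markers -1.35, -1.74, -1.79 and -1.21. The part of these cells in the difference was not tested.

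**Figure D3:**
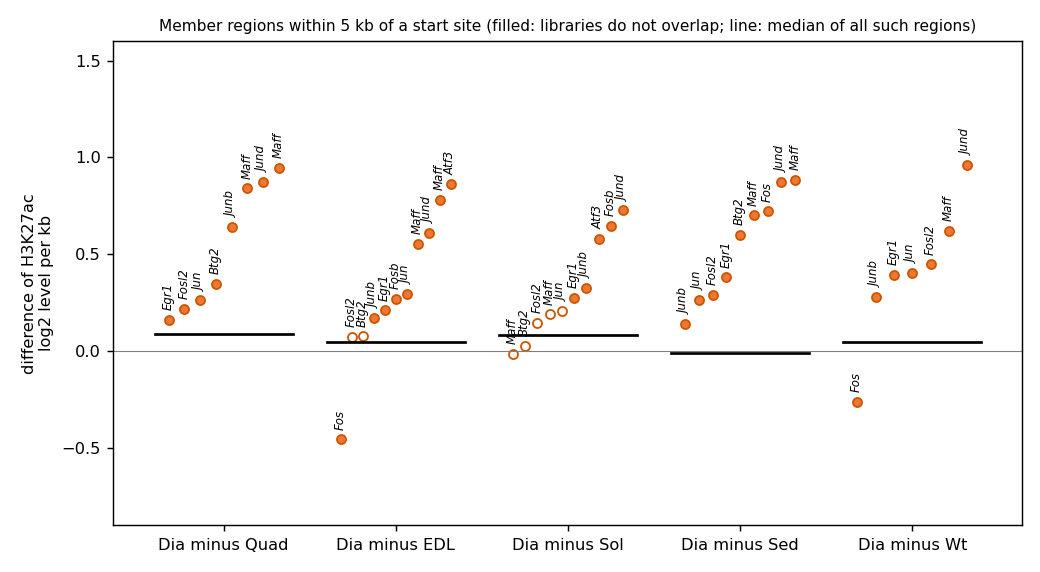
Difference in H3K27ac (log2 per kb) between Dia and 5 untreated groups at each matched region within 5 kb of a start site of the 10 genes, filled where the 2 libraries of each group do not overlap. Black lines are the median of all such regions. Against Quad and Sed every filled point lies above 0, Jund is 0.61 to 0.96 above each group per kb, and Fos lies below EDL and Wt.

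Over the highest peak of each gene, wherever it lay, Dia was the highest group for 5 of the 10 genes. It was for 9.01% of 9525 genes with a peak in all 8 lists. These were Fosl2, Jun, Junb, Jund and Maff again, through the same start-site peaks, so the count repeats the earlier one. Ex was the lowest group for 4 of the 10, where it was for 15.01% of all. The genes whose highest peak followed the median profile of the 10 most closely over the 8 groups were Tmbim1 (Pearson r = 0.97), Rpl10 (0.95), Mir193a (0.95), G630071F17Rik (0.95) and Hspb8 (0.94), a small heat shock protein gene. With 8 groups as points, 18 genes passed an r of 0.9. Tmbim1, the closest, ran from 0.77 in Sed and 0.84 in Ex to 1.34 in Sol and 1.44 in Dia.

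Away from start sites, 8 regions carried both marks in all 8 groups: 3 around Fos, 2 near Btg2 and 1 each near Jun, Atf3 and Fosb. Of the Btg2 regions, the one 14.8 kb upstream had Btg2 as nearest gene of its H3K27ac peak in mTg and another gene in the other groups. The strongest around Fos lay 37.7 kb upstream. Its relative H3K27ac levels were 1.63 and 1.47 in EDL, 1.39 and 1.41 in Quad, 1.17 and 0.77 in Sol, 1.42 and 1.54 in Dia, 1.14 and 0.76 in Sed, 0.32 and 0.29 in Ex, 1.49 and 1.52 in Wt, and 1.60 and 1.58 in mTg. Ex was below every other group there, the nearest library of another group being Sed at 0.76. Peak widths, 3.30 to 4.77 kb, were alike.

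The region 18.5 kb upstream of Fos, over the accessible site with 3 copies of TGACGT, divided the groups in another way. It read 1.67 and 1.52 in Dia, 1.66 and 1.63 in Wt, 1.41 and 1.28 in Quad, 1.05 and 0.94 in Sol, 0.79 and 0.89 in mTg, 0.42 and 0.34 in EDL, 0.30 and 0.51 in Ex, and 0.44 and 0.15 in Sed. The mTg libraries stood below both Wt libraries, and here the widths were close (2.85 and 2.45 kb). The peaks of EDL and Sed, 6.22 and 5.19 kb wide, take in flanking chromatin that the narrower peaks of Dia, Quad, Sol and Wt leave out. This accessible site was among the most open of the 10 genes, at 42.0 scaled tags and the percentile 99.5 of all ATAC peaks. H3K4me2 there was highest per kb in Dia, at 1.04 and 1.20 in a peak of 0.878 kb, and 0.27 to 0.74 in the other groups, with peaks of up to 2.25 kb. Over the whole peak Dia, at 0.85 and 1.02, was below Quad, at 1.73 and 1.83. The region 12.2 kb downstream of Fos, with its own CArG box, ran from -0.38 in Sed, where the peak was 6.36 kb wide, to 1.07 in Dia.

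Near Atf3 the upstream region outdid the start site. At 41.5 kb upstream H3K27ac read 1.07 and 0.71 in EDL, 1.59 and 1.34 in Quad, 1.82 and 1.41 in Sol, 1.62 and 1.29 in Dia, 1.05 and 1.24 in Sed, 1.58 and 1.13 in Ex, 1.56 and 1.44 in Wt, and 1.25 and 1.06 in mTg. In each of the 7 groups with a start-site peak, both libraries were higher at this region than at the start site. Its median percentile was 97.8, against 81.5 for the start site. Fosb likewise had a region 16.8 kb upstream in all groups, at -0.17 to 0.71 in H3K27ac and 0.24 to 0.94 in H3K4me2, and Btg2 one 16.3 kb downstream, at 0.10 to 0.82.

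Jun had the broadest region of the set, 105 kb upstream. Its H3K27ac peak was 11.9 to 16.2 kb wide in 7 groups. It read 1.30 and 1.45 in EDL, 1.73 and 1.81 in Quad, 1.03 and 1.03 in Sol, 1.07 and 1.46 in Dia, 1.42 and 1.19 in Sed, 1.63 and 1.68 in Wt, and 1.51 and 1.69 in mTg. In Ex alone it was called as 2 peaks, of 7.76 kb at 0.95 and 1.00 and of 3.79 kb at 0.42 and 0.63, both below Sed. Quad was highest and Sol lowest among the undivided peaks. H3K4me2 there was called as up to 3 narrower peaks per group, the highest at 0.75 and 1.08 in Sed.

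Few regions of the 10 genes differed by over 2-fold between groups with no overlap of libraries. Among muscles, H3K27ac gave 0 of 33 matched regions for EDL against Quad (0.643% of all matched regions), 1 of 31 for Sol against Quad (3.74%) and 1 of 28 for Dia against Quad (4.27%). The Sol count was 4 without division by width and 2 without Sol replicate 1. The Dia count was 6 without division by width, 3 without Dia replicate 1, 4 without Dia replicate 2 and 2 without Quad replicate 1. Differences were centred once more on their median over all matched regions, so they can depart slightly from those of the library values. In Sol the region was Fosl2, 101468 bp upstream, at -0.98 and -1.28 against -0.22 and -0.13 in Quad, a difference of -1.01. In Dia the region was Fosl2, 29617 bp upstream, at -1.22 and -1.54 against -0.08 and 0.15 in Quad, a difference of -1.45. The next region, 33.2 kb upstream, was also lower in Dia, at -0.85, while the Fosl2 start site was higher in Dia by 0.22. H3K4me2 gave 1 of 31 for EDL against Quad (0.457%), Fosl2 at 65405 bp upstream with a difference of -1.48. It gave 1 of 30 for Sol against Quad (1.89%), a peak inside the broad Jun region at -1.19, and 0 of 31 for Dia against Quad (1.58%). Counts of 0 or 1 region do not set the 10 genes apart from all regions. The counts of 2 to 6 under other settings are given without the share of all regions, so no reading is drawn from them. The H3K27ac peak of that Jun region was also lower in Sol than in Quad, with a difference of -0.80, although another H3K4me2 peak inside it read 0.84 and 0.81 in Sol.

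Untreated quadriceps from the 3 sets served as a measure of what differs without a treatment. In H3K27ac, 0 of 30 regions were over 2-fold apart for Quad against Sed (1.07% of all), 0 of 38 for Quad against Wt (1.35%) and 0 of 37 for Sed against Wt (0.495%). In H3K4me2 the counts were 0 of 26 (0.734%), 0 of 30 (2.7%) and 1 of 29 (1.78%), the last a region 23763 bp downstream of Fos that was 1.04 higher in Sed. The median size of the H3K27ac difference was 0.27, 0.21 and 0.20 for these 3 pairs (0.24, 0.25 and 0.23 over all matched regions). It was 0.30 for Ex against Sed and 0.24 for mTg against Wt (0.29 and 0.32 over all). The H3K27ac difference of Sed from Wt was -0.98 at the Fos start site and -0.97 at 25643 bp upstream of Fos. Over whole peaks it was -0.19 and -0.27.

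Comparing Ex with Sed asks how weeks of running mark these genes hours after a bout. H3K27ac gave 1 of 35 matched regions over 2-fold apart (3.17% of all), and H3K4me2 0 of 30 (0.0925%). The one region lay 114325 bp upstream of Jun, at the edge of the broad region, with -1.47 and -1.55 in Ex and -0.09 and -0.76 in Sed, a difference of -1.13. Its call rested on Sed: the count was 0 without Sed replicate 1 and 4 without Sed replicate 2. Libraries did not overlap at 15 of 35 regions (56.7% of all, in either direction), 4 higher and 11 lower in Ex, and the median difference was -0.14. Quartiles of the difference were -0.40 and 0.09, against -0.30 and 0.29 over all matched regions. The share of all regions in each direction is not given.

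Around Fos, differences between Ex and Sed were -0.77 at 37.7 kb upstream and -0.33 at the start site, while at 18.5 kb upstream libraries overlapped with a difference of -0.01. Near Jun it was lower at 232 kb (-0.77) and 105 kb upstream (-0.45), and higher at 30.4 kb upstream, with -0.29 and -0.01 in Ex against -0.80 and -0.91 in Sed. Fosb at 563 bp before its start site was lower in Ex at -0.56, Btg2 downstream at -0.53, Atf3 across its start site at -0.40 and Fosl2 at 202127 bp upstream at -0.70. Higher in Ex with no overlap were Fosl2 at 23903 bp upstream (0.40) and 18960 bp downstream (0.32). Over whole peaks 3 of the 15 turned direction, including Btg2 downstream (0.45) and Fosl2 at 23903 bp (-0.34), while Fos at 37.7 kb upstream was at -1.03 and Jun at 232 and 105 kb upstream at -1.20 and -1.12. The 2-fold call at 114325 bp was lost, at -0.38, because the Ex peak was the wider, at 2.42 kb against 1.49 kb. Other regions were over 2-fold lower in Ex over whole peaks, with no overlap. They were the Fos region and the 2 Jun regions just named, Fosl2 at 202127 bp upstream (-1.31) and Atf3 at 38747 bp upstream (-1.44). In each of them the Ex peak was the narrower, as at Atf3 (0.911 against 1.73 kb) and Fosl2 (2.25 against 3.57 kb). At 105 kb upstream of Jun, only the 7.76 kb Ex peak was matched to the 12.8 kb Sed peak. The other Ex peak there was left out, so that difference overstates the loss over the whole region. No share of all regions is given for that setting. Near start sites 3 of 10 regions were higher in Ex (47.5% of all), and the median was -0.15 against -0.02 for all.

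The median H3K27ac level of muscle fiber markers was 0.38 in Ex (6 of 7 with a peak) and 0.69 in Sed (5 of 7). Markers were higher in Ex for endothelium, at 0.21 against -0.26 (6 of 6 in both), fibroblasts, at 0.19 against -0.29 (5 and 4 of 5), macrophages, at -0.76 against -1.41 (5 and 4 of 6), and smooth muscle, at -0.73 against -1.04 (3 of 3 in both), and not for satellite cells, at -1.50 against -1.37 (1 and 2 of 2). These are levels of a mark and not cell counts. By RNA of such markers, the authors found no change in the cell composition of Ex muscle. The part of these cells in the differences was not tested.

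Comparing mTg with Wt asks what constant Pgc1a, a coactivator of mitochondrial genes, does to the same regions. H3K27ac gave 0 of 30 matched regions over 2-fold apart (4.64% of all) and H3K4me2 0 of 19 (0.724%). Libraries did not overlap at 17 of 30 H3K27ac regions (63.4% of all), 8 higher and 9 lower in mTg, with a median of -0.03. The lowest was 18.5 kb upstream of Fos, at 0.85 and 0.94 in mTg against 1.67 and 1.62 in Wt, a difference of -0.73. Over the whole peak that difference was -0.45, again without overlap. The highest was 16.8 kb upstream of Fosb, at 0.77 and 0.73 against 0.31 and -0.05, a difference of 0.64, but its peak was narrower in mTg (1.33 against 2.45 kb) and lower as a whole, at -0.17. Egr1 was higher just before its start site by 0.59, Jund across its start site by 0.35 and Jun by 0.22, whereas Btg2 was lower at its start site, at -0.30. Over whole peaks 8 of the 17 turned direction, with Egr1 at -0.05, Jund at -0.28 and Btg2 at 0.50, so that their direction in mTg depends on whether levels are taken per kb. Jun regions 157287 and 30400 bp upstream were lower both ways, at -0.64 and -0.53 per kb and -0.15 and -0.97 over whole peaks, the first then with overlapping libraries. Endothelial markers had a median of -0.70 in mTg and -0.29 in Wt, fibroblast markers -0.52 and 0.12, and macrophage markers -1.31 and -0.82. Muscle fiber markers had 1.40 and 1.19. These are levels of a mark and not cell counts. By RNA, the authors found macrophage and endothelial markers enriched in mTg muscle. The part of these cells in the differences was not tested.

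**Figure D4:**
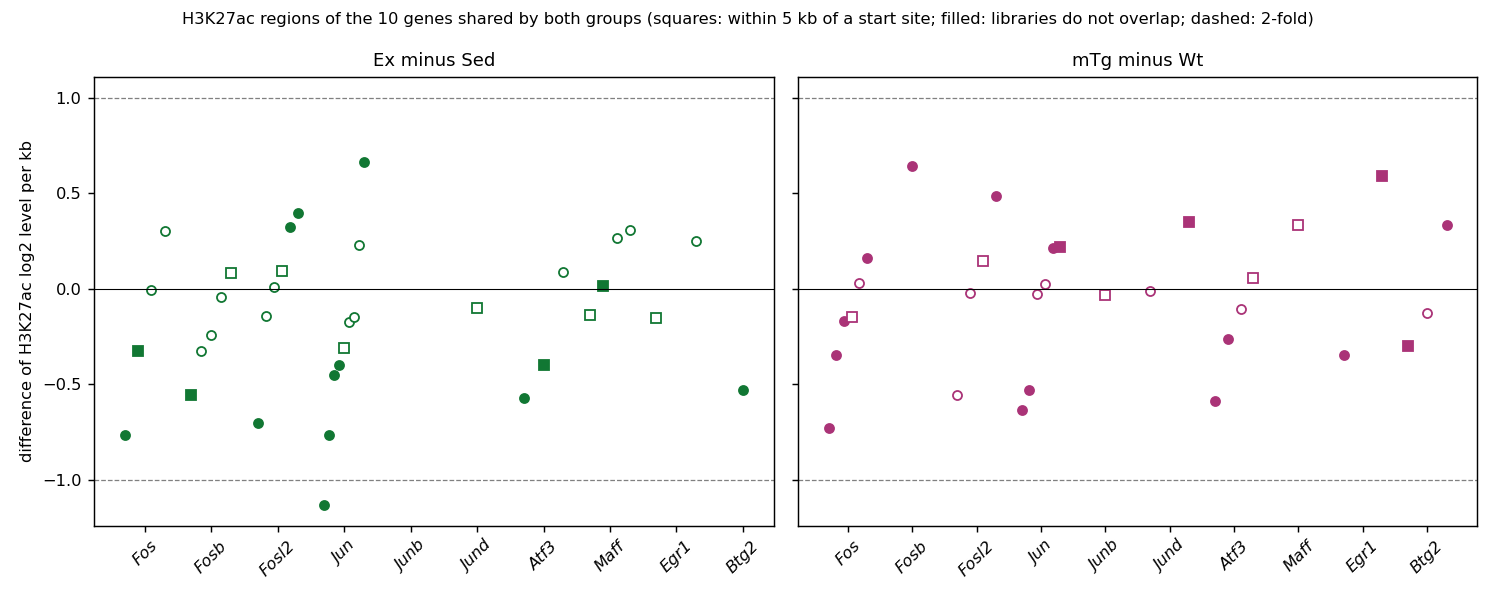
Difference in H3K27ac (log2 per kb) between Ex and Sed (left) and between mTg and Wt (right) at every matched region of the 10 genes. Squares lie within 5 kb of a start site, and filled symbols are regions where libraries do not overlap. Of all regions drawn, 1 Jun region passes the 2-fold line in Ex and 0 do in mTg.

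The authors' own lists of changed H3K27ac regions held few regions of the 10 genes. The Ex hyperacetylated list had 0 of its 382 regions there, where 0.909% of all merged Ex and Sed regions were listed, and the mTg hyperacetylated list 0 of 1828, where 3.27% of mTg and Wt regions were listed. The hypoacetylated lists had 1 region of Jun in Ex, which is 1 of 68 merged regions of the genes (5.43% of all), and 2 of Fosl2 in mTg, which is 2 of 83 (1.51% of all). These regions were picked by the authors because they differ between the same libraries. The limma test below, at an adjusted p threshold of 0.05 within each list, therefore measures replicate spread and is not independent evidence, and 99.7% of the Ex and 100% of the mTg hypoacetylated regions passed it.

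The Jun region, chr4:95282061-95285810, is intergenic, 231713 bp upstream of the start site, and holds the last accessible site shown above. Its log2 tag values were 7.74 and 7.60 in Ex and 8.74 and 8.02 in Sed, a difference of -0.71 (SE 0.215, limma adjusted p = 0.00159). Both Ex libraries were below both Sed libraries, but the Sed libraries were 0.72 apart. Without Sed replicate 1 the difference was -0.35 (limma adjusted p = 0.112), and without Ex replicate 2 it was -0.64 (limma adjusted p = 0.0566). In such fits 1 group has a single library, which is assumed to vary like the other group and the other regions of the list. On the relative scale per kb the region read 0.26 to 0.66 in EDL, Quad, Sol, Dia, Wt and mTg, and -0.44 and -0.70 in Ex. Sed replicate 1, at 0.49, was with the other groups and Sed replicate 2, at -0.33, near Ex.

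The larger Fosl2 region, chr5:32105232-32108060, is intergenic and 29826 bp upstream. Its log2 tag values were 6.29 and 6.48 in mTg and 7.13 and 7.33 in Wt, a difference of -0.84 (SE 0.130, limma adjusted p = 1.07e-05). The smaller, chr5:32086854-32087735, 49178 bp upstream, had 4.01 and 4.001 in mTg and 4.44 and 4.61 in Wt, a difference of -0.52 (SE 0.126, limma adjusted p = 0.000733). Both groups were apart at both regions. At the larger one, relative levels per kb were lowest in Dia (-1.36 and -1.67) and mTg (-1.12 and -0.97), with Sol at -0.54 and -0.50. They were higher in the other groups, at -0.03 and -0.21 in EDL, -0.19 and 0.05 in Quad, -0.06 and -0.32 in Sed, 0.19 and 0.19 in Ex, and -0.15 and 0.11 in Wt. Peak widths at this region ran from 1.24 to 6.86 kb, so the order per kb depends in part on width. Over whole peaks Dia and Sol were again below Quad, with differences of -1.83 and -0.89. Whole-peak values of the other groups are not given. The Fosl2 start site did not follow, at 1.68 and 1.48 in mTg and 1.57 and 1.45 in Wt.

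**Figure D5:**
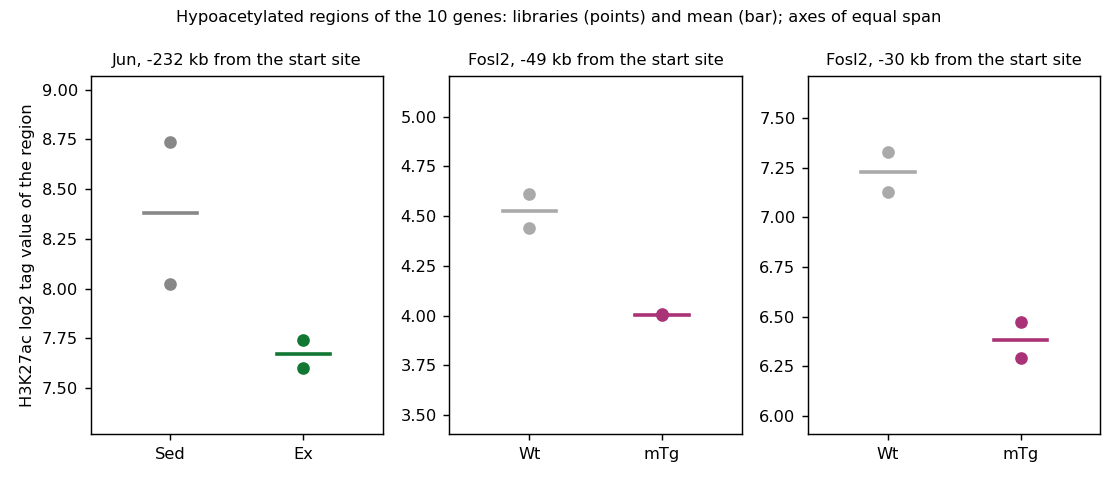
Deposited log2 H3K27ac tag values of the 3 regions of these genes in the authors' hypoacetylated lists, 1 point per library and a bar at the mean of 2, with panels of equal height in log2 units. The groups do not overlap in any panel, and the 2 Sed libraries at Jun lie as far apart as the means of Ex and Sed.

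Other genes of the same pathways were also looked up in these lists. Of all genes with an H3K27ac peak, 2.34% had a region in the Ex hyperacetylated list, 10.6% in the Ex hypoacetylated, 9.22% in the mTg hyperacetylated and 4.38% in the mTg hypoacetylated list. Of 14 further AP-1 and MAF genes, 13 had an H3K27ac peak, and they held 6 regions in the Ex hypoacetylated list (Maf, Mafa, Bach1) and 2 in the mTg hyperacetylated list (Maf). Of 37 further early-response genes, 36 had a peak, with 2 regions of 2 genes hyperacetylated and 6 regions of 6 genes hypoacetylated in Ex, and 9 regions of 7 genes hyperacetylated and 5 regions of 4 genes hypoacetylated in mTg. Of 14 upstream factors and kinases, all had a peak, with 4 regions hypoacetylated in Ex (Mkl1, Mkl2) and 1 hyperacetylated in mTg (Mkl2). Mkl1 and Mkl2 encode coactivators of serum response factor. All of these regions had a limma adjusted p under 0.05, in lists chosen for that.

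In Ex the largest of these was Maf, a MAF factor, 64730 bp downstream, at 7.80 and 7.81 against 8.78 and 8.76 in Sed, a difference of -0.96 (limma adjusted p = 9.05e-05). Differences were -0.90 for Mkl2, -0.87 for Nfil3, a leucine zipper repressor, -0.85 for Gadd45g, a stress-induced gene, and -0.81 and -0.77 for Tob1 and Btg3, antiproliferative genes of the same family as Btg2. In mTg the largest was Nfil3, 86805 bp upstream, at 8.86 and 8.84 against 7.57 and 7.79 in Wt, a difference of 1.17 (limma adjusted p = 1.84e-08). Gadd45g and Ier2 were higher by 0.94 each, Klf6 by 0.83 and the pseudokinase gene Trib1 by 0.76, and the kinase gene Sik1 was lower, at -0.85. Maf, Nfil3, Gadd45g, Klf6, Trib1 and Mkl2 each had regions lower in Ex and regions higher in mTg. For Nfil3, Gadd45g and Trib1 these were different sites, those of Trib1 lying 59.9 kb upstream and 25.7 kb downstream. The share of all genes in both lists is not given, and whether the responses differ was not tested.

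Accessible chromatin lay in 35 of 60 Quad H3K27ac peaks of the 10 genes (58.3%, against 57.2% of all Quad peaks) and in 35 of 54 H3K4me2 peaks (64.8% against 52.7%), and every gene had some. The most open sites beside the one upstream of Fos were at the start sites of Jun (39.8 scaled tags), Fosl2 (33.5) and Jund (32.3). MED1, a Mediator subunit that bridges enhancers and RNA polymerase, had a peak in 10 of 56 Dia H3K27ac peaks (17.9%, against 4.16% of all), in 5 of 61 in EDL (8.20% against 1.12%), 6 of 60 in Quad (10% against 3.76%) and 8 of 60 in Sol (13.3% against 5.34%). Each MED1 and NFAT list came from 1 library, so these shares have no replicate check. The MED1 lists held 2145 peaks in Dia, 834 in EDL, 3593 in Quad and 4070 in Sol, and the NFAT lists 485 in Quad and 39661 in Sol. With lists so unlike in size, a peak found in a single muscle cannot be read as a difference between muscles. Jund was occupied by MED1 in all 4 muscles, at percentiles of 99.4 in Dia, 81.5 in EDL, 99.7 in Quad and 98.1 in Sol. Jun also had a MED1 peak in all 4, and Egr1 and Fosb had one in Dia alone, each at the percentile 57.8. NFAT, a factor switched on by calcineurin, had no peak in the 60 Quad regions, where 0.0464% of all Quad peaks did, and was in 3 of 60 in Sol (5% against 3.02%), all of Jun.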

How the data were processed

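H3K27ac and H3K4me2 ChIP-seq of muscle nuclei was analysed from the deposited peak lists, together with ATAC-seq, MED1 and NFAT peak lists. According to the submitters' processing notes, reads were aligned with Bowtie 1.2 to mm10 and peaks came from HOMER. mm9 is also named for the ATAC-seq and factor libraries, and gene distances in their lists matched mm10. The authors called peaks for each group over its 2 replicates against input, at 2-fold and an FDR of 0.05, and deposited log2 tag values per library. The authors' adjusted p-values over input were used only to try a stricter minimum. For factors and ATAC-seq the authors deposited a peak score and a signal of tags scaled to a common library size. Columns of the authors' own comparisons, which hold fold changes and p-values between groups, were not used, nor were lists holding intervals alone.

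Tag values were divided by peak width and set relative to each library's median over peaks in regions called in all 8 groups. Groups were compared by 1 to 1 matches with a reciprocal overlap of 50%, each library centred on its median over matched regions and the difference centred again on its own median. Lists were normalized separately, so no test was made between them. Within each hyper- or hypoacetylated list, limma 3.58.1 (R 4.3.3) was fitted over all regions with Benjamini-Hochberg adjustment at 0.05 and was tested on simulated data. Fit p-values measure the spread between 2 libraries per group, and pooled animals narrow that spread. Depth was 6.41 to 24.2 M tags per histone library, and shallower libraries give less precise values at weak peaks.

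The 10 genes and the other gene lists were chosen with earlier results of these data known. Named genes were the members, the 10 genes of the other lists with the largest absolute difference in the hyper- or hypoacetylated lists, and the genes closest to the members' median profile. Alternatives were a stricter adjusted p, a 4-fold minimum over input, peaks within 100 kb, an overlap of 80%, levels not divided by width, quantile normalization and leaving out each library.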

Additional observations from a re-analysis of the deposited data

How the results depend on the processing

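Under the authors' adjusted p under 0.001, H3K27ac peaks of the 10 genes numbered 309 and H3K4me2 peaks 223, against 491 and 371, and the minimum of 4-fold over input and the 100 kb limit left both within 1.5 times. Of 16 counts of regions over 2-fold apart, 11 moved when levels were not divided by width, 6 with an overlap of 80%, 5 with the stricter adjusted p and 1 with quantile normalization, as did 19 of 64 with 1 library left out; the cause was not tested. With an overlap of 80% the count was 0 for Sol, Dia and Ex in H3K27ac (against Quad, Quad and Sed) and for EDL against Quad, Sol against Quad and Sed against Wt in H3K4me2. The stricter adjusted p in both lists gave 0 for the same comparisons except Sol against Quad in H3K4me2, and quantile normalization gave 0 for Sed against Wt in H3K4me2. Without division by width, H3K27ac counts were 4 for Sol against Quad, 6 for Dia against Quad, 5 for Ex against Sed, 2 for Quad against Sed, 3 for Quad against Wt and 2 for Sed against Wt. H3K4me2 counts were then 2 for EDL against Quad, 3 for Sol against Quad, 1 for Quad against Sed, 1 for Quad against Wt and 2 for Sed against Wt. These counts, and those with 1 library left out, are given without the share of all regions over 2-fold apart at each setting.

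Leaving out 1 library moved H3K27ac counts to between 1 and 2 for Sol against Quad (2 without Sol replicate 1), 1 and 4 for Dia against Quad (3 without Dia replicate 1, 4 without Dia replicate 2, 2 without Quad replicate 1) and 0 and 4 for Ex against Sed (0 without Sed replicate 1, 4 without Sed replicate 2). It gave 0 to 1 for mTg against Wt (1 without Wt replicate 1), Quad against Sed (1 without Quad replicate 1 or either Sed library) and Quad against Wt (1 without Quad replicate 1 or Wt replicate 1), and 0 to 2 for Sed against Wt (2 without Sed replicate 1 or Wt replicate 2). In H3K4me2 it gave 0 to 1 for Dia against Quad (1 without Dia replicate 2 or Quad replicate 1) and Quad against Wt (1 without Quad replicate 1 or Wt replicate 2), and 1 to 2 for Sed against Wt (2 without Wt replicate 2). Near-start H3K27ac regions higher in Dia than in Sol numbered 5 to 9, against 47.9% to 51.0% of all near-start regions. The Jun difference in Ex ranged from -1.07 to -0.35 and was past the threshold only with Ex replicate 2 and Sed replicate 1 kept. The Fosl2 differences ranged from -0.95 to -0.74 and from -0.60 to -0.43, past the threshold each time. The test of the differential lists at a stricter adjusted p of the authors was not run, since their comparison columns were not used.

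Replicate numbers do not pair the samples, with 2 pairs per list and correlations of same-numbered deviations of 0.144, 0.106, -0.0386 and -0.242. With a replicate block, limma adjusted p was 3.38e-05 for Jun and 0.00129 and 0.00624 for Fosl2, and the paired fits moved no count of calls over 1.5 times. In the mTg hypoacetylated list the crossed pairing called 844 regions, as did the fit without a block.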
